A study of Homo sapiens with 6 samples.

Results

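Genes of DNA repair were followed in DU145 cells, an established line from a human prostate cancer, after 24 h with the p300/CBP bromodomain inhibitor CCS1477 at 1 µM. The set held 46 genes, chosen by symbol from a list of repair factors. All 46 were found once each among the 60623 genes of the deposited tables. They were grouped as homologous recombination and Fanconi (22 genes), mismatch (3), end joining (5), excision repair (12) and checkpoint (4). Poly-A RNA was sequenced from 3 libraries of cells given CCS1477 and 3 of cells given the solvent DMSO, all of wild-type genotype by their labels and grown in serum-containing medium. CCS1477 (inobrodib) occupies the bromodomain of p300 and of CBP, which are acetyltransferases found at enhancers and promoters. No label ties the replicates to separate cultures. Each p-value therefore reflects only how far these libraries spread, which may be technical.

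Cells mend DNA by routes that fit the kind of damage. Homologous recombination copies a sister chromatid to close a double-strand break and is used in S and G2 phase, the Fanconi proteins unhook crosslinks between the strands, and end joining ligates broken ends directly throughout the cell cycle. Mismatch repair corrects replication errors, base excision and single-strand break repair replace small lesions, and nucleotide excision cuts out bulky ones. The kinases ATM and ATR sense damage and act through CHK2 and CHK1 to halt the cycle. Prostate cancers can lose genes of recombination, and such tumours can be sensitive to inhibitors of PARP1.

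Library totals ran from 8691382 to 9412867 counts in CCS1477 and from 8286880 to 11956734 counts in DMSO. Mitochondrial genes took 4.46% to 5.85% of the counts in CCS1477 and 5.15% to 6.26% in DMSO. The epithelial genes EPCAM, KRT8 and KRT18 averaged 192.0, 727.6 and 797.7 TPM in CCS1477 and 227.3, 711.6 and 804.9 TPM in DMSO, and did not pass the test described with the first comparison. Both other genes of that epithelial list fell: CDH1, an adhesion protein gene, averaged 31.1 TPM in CCS1477 and 67.97 TPM in DMSO (log2 fold change -1.17, edgeR adjusted p = 1.64e-05), and KRT19 446.7 and 537.8 TPM (-0.34, edgeR adjusted p = 0.021). Their part in the changes of the repair genes was not tested. Among prostate luminal genes, KLK3, KLK2 and FOLH1 had no count in any library, where 3 counts would be 0.251 to 0.362 CPM, and the leukocyte gene PTPRC had none either. TPM is scaled by transcript length and by library, and CPM here is a library's counts scaled by its total and its TMM factor. Libraries also differed by transcript length and GC content. Over 11891 genes, the deviation of a gene in a library correlated with its transcript length at Spearman rho 0.231, -0.013 and -0.111 in CCS1477 1, 2 and 3, and at -0.039, 0.264 and -0.307 in DMSO 1, 2 and 3. With GC, rho was -0.376, 0.093 and 0.24 in CCS1477 1, 2 and 3, and 0.167, -0.256 and 0.161 in DMSO 1, 2 and 3. The median GC was 43.7% for the members and 48.7% over 14831 tested genes. Genes are not independent replicates, so these are descriptions.

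All 46 genes were expressed, and 37 of them averaged at least 10 TPM over the 6 libraries. The end-joining gene XRCC6, which encodes a subunit of the Ku ring that caps broken ends, was the highest, with 445.5, 435.4 and 418.8 TPM in CCS1477 libraries 1, 2 and 3, against 444.2, 454.2 and 380.7 TPM in DMSO libraries 1, 2 and 3. Its partner XRCC5 averaged 181.5 TPM in CCS1477 and 186.9 TPM in DMSO, and PARP1, a sensor of strand breaks, 201.4 and 161.5 TPM. At the low end, FANCB, a subunit of the Fanconi core complex, had 3.56, 1.72 and 1.70 TPM in CCS1477, against 1.99, 2.35 and 2.40 TPM in DMSO. The median over the members was 20.9 TPM in CCS1477 and 19.6 TPM in DMSO, against 16.7 and 15.9 TPM over all genes tested.

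**Figure D1:**
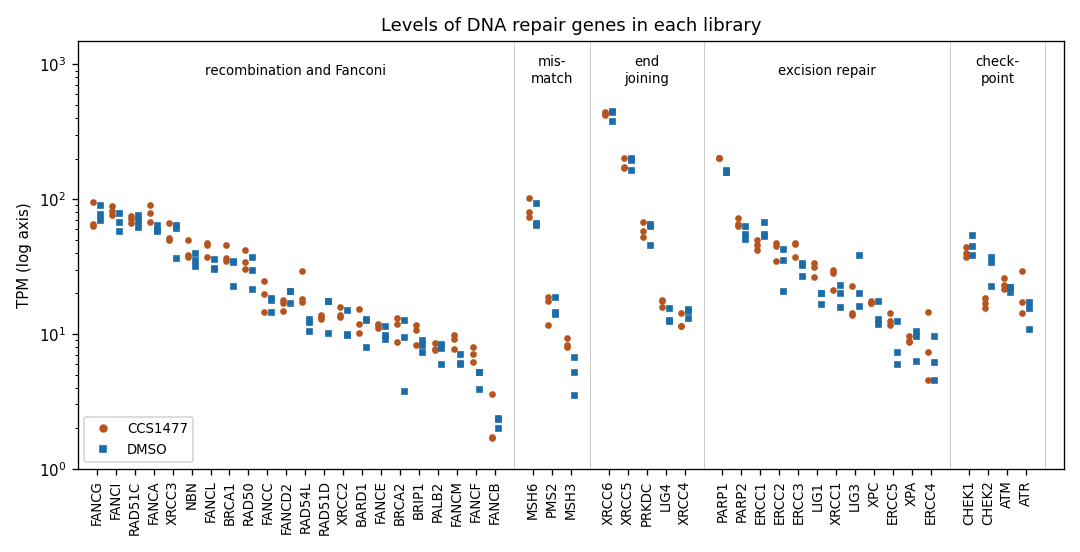
TPM of each repair gene on a log axis, with 1 circle per CCS1477 library and 1 square per DMSO library, ordered within each pathway by mean level. XRCC6 lies near 430 TPM and FANCB near 2 TPM, and for most genes the symbols of the groups overlap.

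After CCS1477, 7 of the 46 repair genes were higher and 2 were lower. The genes that rose were MSH3, LIG1, FANCM, ERCC3, FANCA, PARP1 and FANCI, and those that fell were CHEK2 and ERCC1. The other 37 did not pass an adjusted p of 0.05 in the quasi-likelihood test of edgeR, adjusted by Benjamini-Hochberg over all 14928 genes tested. Over all genes 17.9% were called, 7.23% higher and 10.7% lower, set beside 19.6% of the repair genes, 15.2% higher and 4.35% lower. The share called in either direction was near the background. Of the calls over all genes 59.7% were lower, and 48.3% with scaling by library size. The groups did not overlap for 17 repair genes (37.0%), 14 higher and 3 lower, against 35.9% of all genes, 16.5% higher and 19.3% lower. The median log2 fold change was 0.14 over the repair genes and -0.003 over all genes, and 33 of the 46 estimates were above 0. Log2 fold changes of the repair genes ran from -0.71 to 0.77, and 4 of 46 exceeded 0.5 in size, against 20.99% of all genes tested. The median size of the log2 fold change was nevertheless 0.25 for the repair genes and 0.23 over all genes. The median SE was 0.12 for the repair genes and 0.15 over all genes. In bulk RNA, fewer cells with a transcript and less transcript per cell cannot be told apart.

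The number of calls depended on single libraries. It was 5 higher and 2 lower without CCS1477 1, 3 and 1 without CCS1477 2, the same without CCS1477 3, 4 and 1 without DMSO 1, 11 and 2 without DMSO 2, and 8 and 1 without DMSO 3. On the log2(TPM + 1) scale limma called only LIG1. The median of the repair genes in each library, relative to the mean of all 6, was 0.12, 0.04 and 0.04 (log2) in CCS1477 1, 2 and 3, and -0.05, 0.00 and -0.13 in DMSO 1, 2 and 3. For the 23 members with the longer transcripts it was 0.16, 0.07 and 0.03 in CCS1477 and -0.09, 0.07 and -0.18 in DMSO. CCS1477 1 and DMSO 3 were thus the highest and lowest libraries for the longer members, and DMSO 2 lay with the CCS1477 libraries. For the 23 shorter members it was 0.10, 0.004 and 0.09 in CCS1477 and 0.02, -0.16 and -0.08 in DMSO. There DMSO 2 was the lowest library. The longer members held 3 calls higher and 0 lower, and the shorter members 4 higher and 2 lower. The part of the length and GC trends in the changes of the repair genes was not tested. Offsets for GC and length, an alternative added after seeing the data, gave 11 higher and 3 lower, among them all 9 genes called here. Together with a block for replicate number they gave 10 higher and 1 lower, and ERCC1 lost its call.

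**Figure D2:**
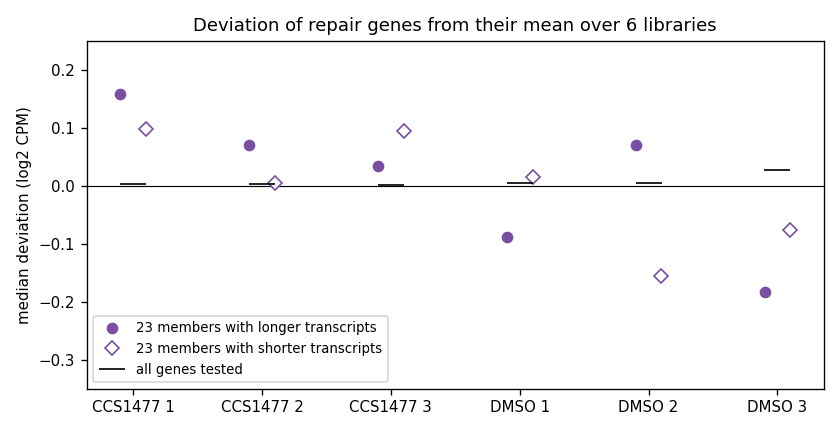
Median deviation (log2 CPM) of the repair genes from their mean over the 6 libraries, for members with longer (filled circles) and shorter (open diamonds) transcripts, with all genes tested as a dash. The longer members run from -0.18 in DMSO 3 to 0.16 in CCS1477 1, while all genes stay within 0.03 of 0.

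**Figure D3:**
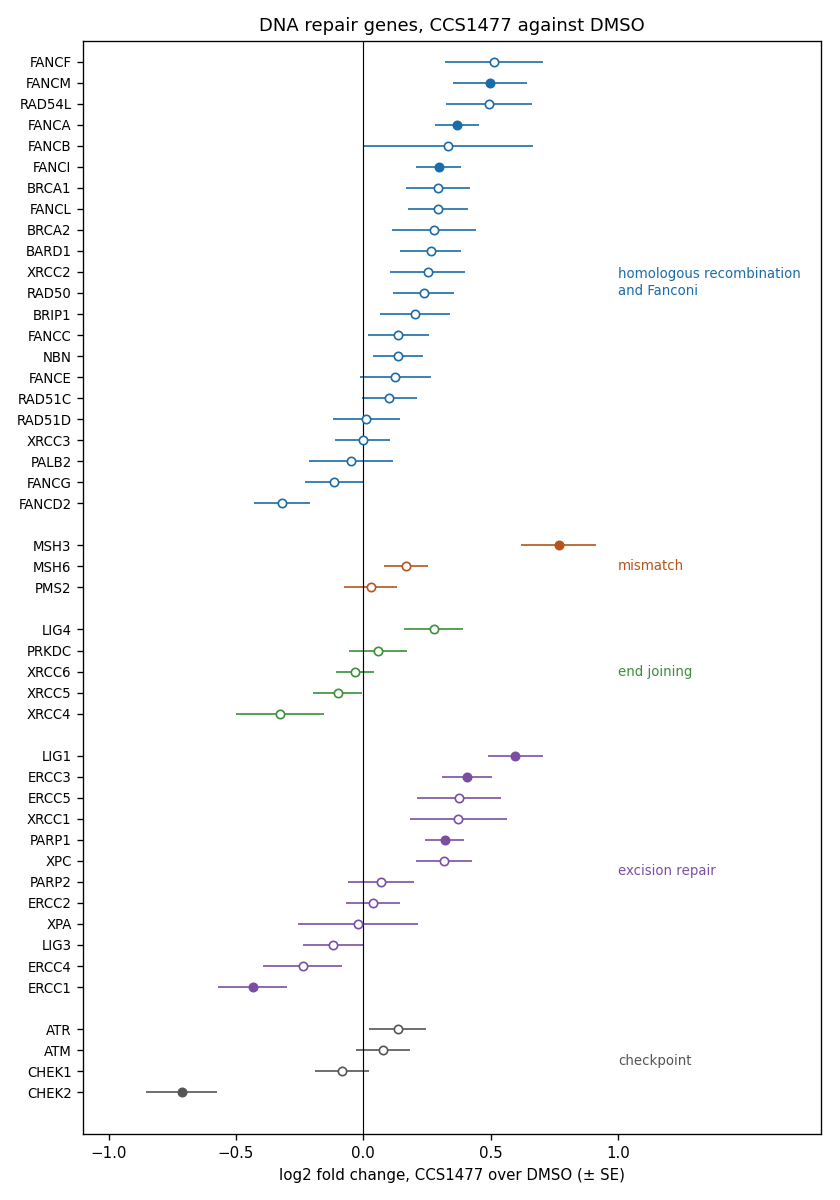
Log2 fold change of each repair gene, CCS1477 over DMSO, with its SE as a bar, ordered within each pathway. Filled symbols passed the adjusted threshold of 0.05, which 7 genes did above 0 and 2 below it.

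Many repair genes are known targets of the E2F factors, which drive transcription at the start of S phase, so promoter windows were searched for E2F words. RefSeq windows (GRCh38.p14, 250 bases before to 50 after the start) were matched by symbol for 42 of the 46 members, and searched on both strands for TTTGGCGC, TTTGCCGC, TTTCGCGC and TTTCCCGC. At least 1 word stood in 10 of the 42 windows (23.8%), against 5.35% of 10576 windows of tested genes and 3.31% of all 35116 windows. The stretches of 30 bases around the words are shown on the strand of the gene, with the words in capitals.
MSH3, chr5:80654536-80654565, plus strand: gcggtcaagTTTGGCGCGAAAttgtggccg
LIG1, chr19:48170440-48170469, minus strand: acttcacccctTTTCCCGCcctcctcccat
FANCA, chr16:89816801-89816830, minus strand: actacaccgcgGCGGCAAAgccaaacgcaa
FANCD2, chr3:10026424-10026453, plus strand: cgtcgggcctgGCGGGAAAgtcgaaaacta
XPC, chr3:14178822-14178851, minus strand: cctgcgcccTTTCCCGCctctcgcgagaac
XRCC2, chr7:152676102-152676131, minus strand: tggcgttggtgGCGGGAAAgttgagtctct
MSH6, chr2:47783137-47783166, plus strand: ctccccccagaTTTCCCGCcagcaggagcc
FANCC, chr9:95317863-95317892, minus strand: ccggggcttccGCGCGAAAccgggaacact
FANCC, chr9:95317737-95317766, minus strand: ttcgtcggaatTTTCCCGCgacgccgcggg
PMS2, chr7:6009131-6009160, minus strand: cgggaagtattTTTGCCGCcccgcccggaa
XRCC6, chr22:41621315-41621344, plus strand: tgtccaagttggtcgcttccctGCGCCAAA
In MSH3, 2 words overlap on opposite strands. Of the 10 genes with a word, MSH3, LIG1 and FANCA were called higher and none lower. Among all 46 members 15.2% were called higher, and among all genes tested 7.23%. FANCD2 had a log2 fold change of -0.32 and XRCC6 of -0.03, neither past the threshold. The share of calls among all tested genes with a word was not computed, and a link between words and changes was not tested. The CHR words TTTGAA and TTCGAA, linked to G2 genes, stood in 11.9% of the member windows and 10.5% of those of tested genes, and CCAAT in 38.1% and 36.3%. A match is a description of letters, not of binding.

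Among genes of recombination and the Fanconi pathway, 3 of 22 rose and none fell, and the median log2 fold change was 0.25. All 3 that rose belong to the Fanconi pathway. FANCA, a core complex subunit, had 128.1, 119.5 and 133.5 CPM in CCS1477 libraries 1, 2 and 3, against 96.9, 96.5 and 101.9 CPM in DMSO libraries 1, 2 and 3. The groups did not overlap. Its log2 fold change was 0.37 ± 0.09 (SE, edgeR adjusted p = 0.0122), and it did not pass without CCS1477 3 or DMSO 1. FANCA shares 23.6% of its exon bases with ZNF276 on the other strand, which had a log2 fold change of 0.18 (edgeR adjusted p = 0.268). Strandedness of the counting is not given in the sources used here, so reads of such overlaps cannot be told apart.

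FANCM, the translocase that anchors the core complex on DNA, had 36.9, 30.3 and 31.7 CPM in CCS1477, against 22.3, 27.4 and 20.0 CPM in DMSO. Every CCS1477 library lay above every DMSO library. Its log2 fold change of 0.50 ± 0.14 (SE, edgeR adjusted p = 0.0327) lost its call when any library except DMSO 2 was left out. FANCI, part of the clamp that the core complex ubiquitinates, had 170.3, 158.8 and 152.6 CPM in CCS1477 and 124.2, 138.0 and 130.0 CPM in DMSO, with no overlap. It rose at 0.30 ± 0.09 (SE, edgeR adjusted p = 0.0352), and did not pass without CCS1477 1, CCS1477 2, CCS1477 3 or DMSO 1. POLG, which overlaps 5.9% of its exon bases on the other strand, was also higher, at 0.35 (edgeR adjusted p = 0.0135).

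FANCD2, the partner of FANCI in that clamp, had an estimate below 0 that did not pass. It had 52.5, 43.8 and 42.9 CPM in CCS1477, against 54.5, 59.0 and 60.2 CPM in DMSO, so that the groups did not overlap. The log2 fold change was -0.32 ± 0.11 (SE, edgeR adjusted p = 0.0684). FANCF, a core complex adaptor, had the highest estimate of the group without passing: it had 12.2, 14.2 and 16.5 CPM in CCS1477 and 7.84, 10.5 and 11.8 CPM in DMSO, a log2 fold change of 0.51 ± 0.19 (SE, edgeR adjusted p = 0.0878). FANCL, the ubiquitin ligase of the complex, stood at 0.29 ± 0.12 with an edgeR adjusted p = 0.112. The highest of the core subunits by mean TPM over the 6 libraries was FANCG, at 77.1 TPM beside 69.7 TPM for FANCA, although in CCS1477 alone FANCA averaged 78.8 TPM and FANCG 74.8 TPM. FANCG had 95.5, 65.4 and 63.7 TPM in CCS1477 and 70.1, 78.0 and 89.8 TPM in DMSO. FANCG overlapped between the groups and had a log2 fold change of -0.12. FANCB, FANCC and FANCE had estimates from 0.13 to 0.33, and FANCB, with a mean of 4.72 CPM in CCS1477 and 3.70 CPM in DMSO, had the widest SE, 0.34.

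In the BRCA axis none of 5 genes passed. BRCA1, whose product directs broken ends toward recombination, had 123.2, 100.8 and 103.5 CPM in CCS1477, against 87.2, 104.4 and 74.9 CPM in DMSO, a log2 fold change of 0.29 ± 0.13 (SE, edgeR adjusted p = 0.131). DMSO 2 lay within the range of the CCS1477 libraries. BRCA2, which loads the recombinase on single-stranded DNA, had 59.2, 55.0 and 53.8 CPM in CCS1477 and 47.1, 57.7 and 33.0 CPM in DMSO, a log2 fold change of 0.28 ± 0.16 (SE, edgeR adjusted p = 0.277). By these fits the 95% interval of the difference ran from -0.06 to 0.64 for BRCA1 and from -0.18 to 0.73 for BRCA2. BARD1, the partner of BRCA1 in its ubiquitin ligase, was higher in every CCS1477 library than in any DMSO library and stood at 0.27 ± 0.12 (SE, edgeR adjusted p = 0.150). The helicase gene BRIP1 stood at 0.20 and PALB2, which links BRCA1 to BRCA2, at -0.05.

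The motor protein gene RAD54L, which helps strand invasion, had 26.0, 23.2 and 25.9 CPM in CCS1477, against 21.1, 13.3 and 18.9 CPM in DMSO. The groups did not overlap. The log2 fold change was 0.50 ± 0.17 (SE, edgeR adjusted p = 0.0631), so that it missed the threshold, and it shares 25.1% of its exon bases with LRRC41 on the other strand. The recombinase paralogs RAD51C, RAD51D, XRCC2 and XRCC3 had estimates from -0.002 to 0.25, with none past the threshold and all overlapping between groups. XRCC3 lies over KLC1 for 76.7% of its exon bases, and RAD50 shares 79.7% with the gene model AC116366.3, so the counts of both are uncertain. NBN and RAD50, of the complex that first binds broken ends, stood at 0.14 and 0.24 and overlapped between groups.

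MSH3 had the largest rise of all 46 genes. Its product recognises insertion and deletion loops in newly copied DNA. It had 25.5, 24.8 and 22.6 CPM in CCS1477 libraries 1, 2 and 3, against 13.6, 16.6 and 12.4 CPM in DMSO libraries 1, 2 and 3. The lowest CCS1477 library lay above the highest DMSO library. The log2 fold change was 0.77 ± 0.15 (SE, edgeR adjusted p = 0.00413), a ratio of 1.70, and the call held when any 1 library was left out but not on the 2 TPM scales.

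MSH6, the alternative to MSH3 that recognises base mismatches, was far more abundant by TPM, with a mean of 85.5 TPM in CCS1477 and 74.7 TPM in DMSO, against 8.54 and 5.16 TPM for MSH3. It had 188.6, 187.9 and 179.2 CPM in CCS1477 and 152.9, 175.5 and 166.0 CPM in DMSO. The groups did not overlap, but its log2 fold change of 0.17 ± 0.09 did not pass (SE, edgeR adjusted p = 0.202). PMS2, a mismatch endonuclease subunit with near-identical pseudogene copies that make its counts uncertain, had a log2 fold change of 0.03 and overlapped between groups.

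None of the 5 end-joining genes passed. The Ku genes XRCC5 and XRCC6 and PRKDC, the kinase that Ku recruits, had log2 fold changes of -0.10, -0.03 and 0.06. XRCC6 had 648.9, 646.1 and 634.9 CPM in CCS1477, against 664.3, 659.3 and 648.2 CPM in DMSO. With an SE of 0.07, its 95% interval ran from -0.24 to 0.18, the narrowest of the set. The ligation partners had estimates of opposite sign. LIG4, the ligase, had 43.2, 50.2 and 50.2 CPM in CCS1477 and 36.1, 42.9 and 39.5 CPM in DMSO, with no overlap and a log2 fold change of 0.28 ± 0.11 (SE, edgeR adjusted p = 0.118). XRCC4, its scaffold, had 13.7, 9.89 and 10.5 CPM in CCS1477 and 14.9, 13.0 and 14.9 CPM in DMSO, a log2 fold change of -0.33 ± 0.17 (SE, edgeR adjusted p = 0.222).

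Excision repair held 4 of the 9 calls, with 3 of its 12 genes higher and 1 lower. LIG1, the ligase that joins Okazaki fragments and seals excision gaps, had 55.4, 49.0 and 57.4 CPM in CCS1477, against 34.7, 34.6 and 37.8 CPM in DMSO. The groups were well apart, and the log2 fold change was 0.60 ± 0.11 (SE, edgeR adjusted p = 0.00304), a ratio of 1.51. It passed under each of the 18 alternatives, where it ranged from 0.55 to 0.67. PARP1 had 541.8, 556.1 and 553.9 CPM in CCS1477, against 453.3, 438.4 and 431.5 CPM in DMSO. The 3 values within each group were close, and PARP1 rose at 0.32 ± 0.08 (SE, edgeR adjusted p = 0.0132), but did not pass without CCS1477 2 or CCS1477 3.

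Other genes of base excision and single-strand breaks did not pass. XRCC1, a scaffold for strand break repair, had 24.0, 36.4 and 37.1 CPM in CCS1477 and 24.0, 20.4 and 31.4 CPM in DMSO, with wide spread in both groups and a log2 fold change of 0.37 ± 0.19 (SE, edgeR adjusted p = 0.208). PARP2 stood at 0.07. LIG3, the ligase partner of XRCC1, stood at -0.12 by counts and had 22.6, 14.3 and 13.8 TPM in CCS1477, against 16.03, 38.8 and 20.3 TPM in DMSO. DMSO 2 was the high library for LIG3, and 29.1% of its exon bases overlap RFFL on the other strand, which was lower at -0.44 (edgeR adjusted p = 0.0149).

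In nucleotide excision, 1 of 7 genes rose and 1 fell. ERCC3, a helicase of TFIIH that opens DNA around the lesion, had 73.0, 71.3 and 65.4 CPM in CCS1477, against 52.4, 55.1 and 50.5 CPM in DMSO. It rose without overlap at 0.41 ± 0.10 (SE, edgeR adjusted p = 0.0131), and did not pass without CCS1477 2 or DMSO 1. ERCC2, the other TFIIH helicase, stood at 0.04 and overlapped between groups. XPC, which recognises damage, had 37.8, 42.5 and 38.5 CPM in CCS1477 and 33.0, 30.3 and 32.0 CPM in DMSO, did not overlap, and missed the threshold at 0.32 ± 0.11 (SE, edgeR adjusted p = 0.0662). XPA, which verifies damage, stood at -0.02 with a mean of 7.86 CPM in CCS1477 and 8.05 CPM in DMSO.

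ERCC1, which with ERCC4 forms a nuclease that cuts beside the lesion and also acts on crosslinks, fell. It had 51.4, 52.5 and 47.9 CPM in CCS1477, against 61.8, 59.2 and 84.7 CPM in DMSO. DMSO 3 was far above the other DMSO libraries. The log2 fold change was -0.43 ± 0.14 (SE, edgeR adjusted p = 0.0448), -0.26 without DMSO 3, and the call ended when any library except DMSO 2 was left out, in limma-voom, on the TPM scales and with scaling by library size. ERCC1 shares 28.6% of its exon bases with CD3EAP on the other strand, which stood at -0.23 (edgeR adjusted p = 0.281). ERCC4 had the lowest mean TPM of the group, with 4.55, 14.5 and 7.35 TPM in CCS1477 and 6.20, 9.73 and 4.59 TPM in DMSO. By counts ERCC4 stood at -0.24 ± 0.16 (SE, edgeR adjusted p = 0.327), while on the log2(TPM + 1) scale it was 0.24. ERCC5, the nuclease of the other side, stood at 0.38 ± 0.17 (SE, edgeR adjusted p = 0.142) and shares 63.2% of its exon bases with the readthrough gene BIVM-ERCC5.

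CHEK2 had the largest fall of the 46 genes. Its product, the kinase CHK2, is activated by ATM after double-strand breaks. CHEK2 had 15.6, 17.2 and 17.4 CPM in CCS1477 libraries 1, 2 and 3, against 27.3, 24.0 and 31.2 CPM in DMSO libraries 1, 2 and 3. The groups did not overlap. The log2 fold change was -0.71 ± 0.14 (SE, edgeR adjusted p = 0.00467), a ratio of 0.61. The call held when any 1 library was left out, and was lost on the TPM scales, where limma's adjusted p was at most 0.0521. CHEK2 had 15.5, 16.9 and 18.5 TPM in CCS1477 and 37.2, 22.6 and 34.2 TPM in DMSO. HSCB, an iron-sulphur co-chaperone gene on the other strand that shares 301 exon bases (6.7%) with CHEK2, was lower too, with a mean of 8.18 CPM in CCS1477 and 13.6 CPM in DMSO and a log2 fold change of -0.73 ± 0.16 (SE, edgeR adjusted p = 0.00949).

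The other checkpoint kinases did not pass. ATM had 83.8, 74.9 and 71.8 CPM in CCS1477 and 73.2, 79.3 and 65.6 CPM in DMSO, a log2 fold change of 0.08 ± 0.11 (SE, edgeR adjusted p = 0.659) with a 95% interval from -0.21 to 0.37. ATR, activated by single-stranded DNA at stalled forks, stood at 0.13, with 29.1, 14.4 and 17.2 TPM in CCS1477 and 17.2, 15.5 and 10.8 TPM in DMSO. CHEK1, the gene of its effector kinase and the most abundant of the 4 by TPM, had a mean of 40.5 TPM in CCS1477 and 46.05 TPM in DMSO and a log2 fold change of -0.08 ± 0.11 (SE, edgeR adjusted p = 0.638). All 3 overlapped between groups. The difference between CHEK2 and the other kinases was not tested.

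**Figure D4:**
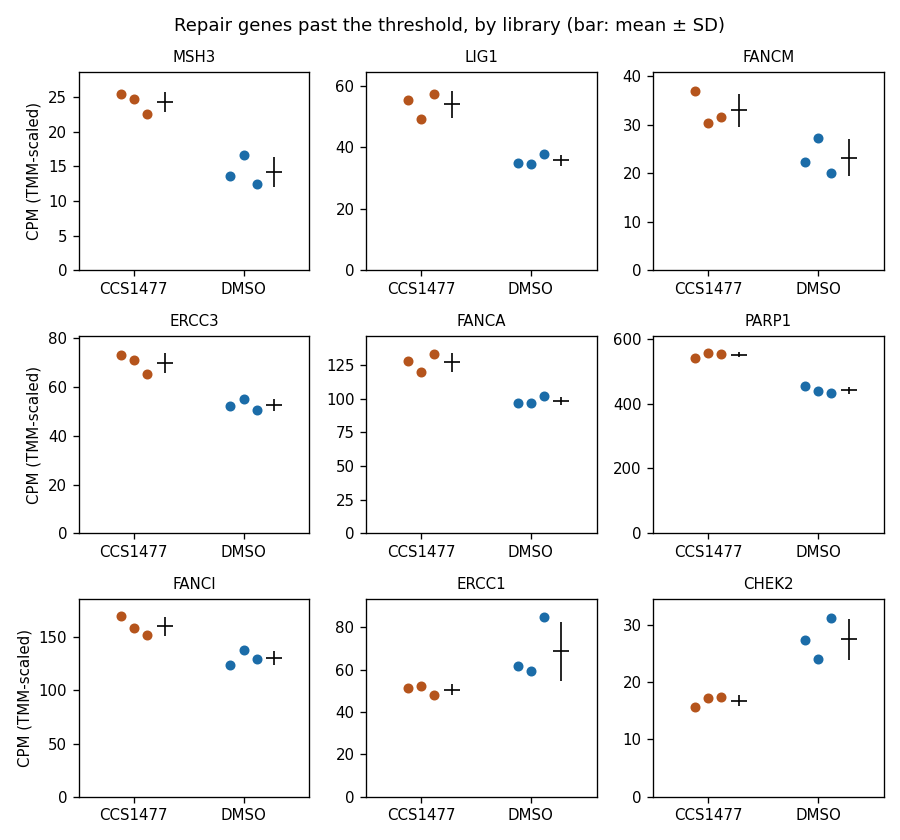
CPM of the 9 repair genes past the threshold in each library, CCS1477 at left and DMSO at right, from the largest rise to the largest fall, with the mean and SD beside the points (n = 3 each). MSH3 lies between 22.6 and 25.5 CPM in CCS1477 and between 12.4 and 16.6 CPM in DMSO, and ERCC1 shows 1 DMSO library at 84.7 CPM.

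Further repair genes, listed by pathway from textbook membership, had a share of calls near the 17.9% of all genes. Of 114 tested, 15 were higher and 6 lower, 18.4% in all, and their median log2 fold change was 0.11. The number higher was 7 without CCS1477 1, CCS1477 3 or DMSO 1, and 4 without CCS1477 2. Checkpoint genes had 6 higher and 1 lower of 21. TIMELESS, a fork protection factor, had 170.7, 158.1 and 161.1 CPM in CCS1477, against 116.9, 120.4 and 113.5 CPM in DMSO, a log2 fold change of 0.48 (edgeR adjusted p = 0.00222). CLSPN, an adaptor through which ATR activates CHK1, and ATRIP, the partner of ATR, rose at 0.52 and 0.68 (edgeR adjusted p = 0.00281 and 0.00484). CDC25B, a phosphatase that the checkpoint restrains, fell by 0.60 on the log2 scale, with a mean of 115.4 CPM in CCS1477 and 175.5 CPM in DMSO (edgeR adjusted p = 0.000624). TIMELESS and CDC25B passed under each alternative, while CLSPN and ATRIP did not pass on the TPM scales.

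Other recombination and Fanconi genes had 4 higher and 1 lower of 38. SFR1, a recombination accessory factor, fell to 7.31 ± 0.87 CPM in CCS1477, against 15.5 ± 0.91 CPM in DMSO (SD, n = 3), a log2 fold change of -1.08 (edgeR adjusted p = 0.00115) that passed under each alternative. SLX4, FAN1 and POLQ rose at 0.41, 0.35 and 0.45 (edgeR adjusted p = 0.0269, 0.0309 and 0.0355), each losing the call without CCS1477 2 and DMSO 1 among others. Among other end-joining genes 2 of 13 were higher and 1 lower. POLM stood at 0.46 and SHLD2, of the shieldin complex, at -0.41 (edgeR adjusted p = 0.0426 and 0.023), POLM losing the call without any library except DMSO 3, and SHLD2 without any CCS1477 library or DMSO 2.

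Other excision repair genes had 2 higher and 3 lower of 37. PARP3 fell to 10.9 ± 0.31 CPM in CCS1477, against 20.2 ± 2.19 CPM in DMSO (SD, n = 3), a log2 fold change of -0.90 (edgeR adjusted p = 0.00177). That call was lost on the TPM scales, where limma's adjusted p was at most 0.0637. The glycosylase TDG rose at 0.39, the TFIIH subunit GTF2H1 fell by 0.46, and ERCC6, which couples repair to transcription, rose at 0.60 (edgeR adjusted p = 0.0242, 0.0237 and 0.012). ERCC6 lost the call without CCS1477 2 and stood at 0.17 on a TPM scale, TDG lost it without any CCS1477 library or DMSO 1, and GTF2H1 without CCS1477 2, CCS1477 3, DMSO 1 or DMSO 2. Of 5 other mismatch genes, 1 was higher, the clamp loader subunit RFC1, at 0.31 (edgeR adjusted p = 0.0264), which lost the call without any CCS1477 library or DMSO 1.

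Markers of the cell cycle were called about as often as all genes, at 18.8% for S phase and 15.4% for G2 and mitosis, beside 17.9%. Among S phase genes 4 of 32 were higher and 2 lower, with a median log2 fold change of 0.03, and among G2 and mitosis genes none of 26 was higher and 4 were lower, with a median of -0.07. Without CCS1477 2, CCS1477 3 or DMSO 1 the S phase list had 2 higher and 0 lower, and without any of these or CCS1477 1 the G2 list had 1 lower. Without DMSO 2 or DMSO 3 the G2 list had 1 higher. E2F1 had 76.1, 69.8 and 78.4 CPM in CCS1477, against 72.6, 50.8 and 71.0 CPM in DMSO, a log2 fold change of 0.21 (edgeR adjusted p = 0.317), and the groups overlapped. The part of the cell cycle in the changes of the repair genes was not tested.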

How the data were processed

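Poly-A RNA-seq of 6 DU145 libraries was used, and groups and replicate numbers came from the sample titles. The authors deposited estimated counts per gene, not normalized, and TPM values per gene, scaled by length and library. Reads were trimmed with Trimmomatic 0.39, per the submitters' processing notes. The aligner, quantifier, build and strandedness were not given in the sources used here. Estimated counts were rounded to whole numbers (10.2% to 10.7% of nonzero values per library were not whole). Genes were kept by filterByExpr (minimum count 10, minimum total 15), leaving 14928 of 25155 genes with a count. CCS1477 was compared with DMSO by the quasi-likelihood test of edgeR 4.0.16 with TMM factors, Benjamini-Hochberg adjustment over all genes and a threshold of 0.05. Standard errors were derived from the test statistic, and 95% intervals used 4 residual degrees of freedom. The test used more, so all intervals given are wider than its own. All 46 members passed the filter. Alternatives used DESeq2 1.42.0, limma 3.58.1, other scalings and filters, and leaving out each library. Members and lists were chosen with earlier results of these data known. Named genes were those past the threshold, the extremes of level and change in each pathway, and BRCA1, BRCA2, ATM and PARP1; other members with values were named for completeness. From each list of further repair genes, up to 4 past the threshold with the smallest adjusted p were named. Results for a few genes are not reported here. Exon overlaps were taken from GENCODE 29. Depth limits precision: 3 counts, the detection floor, were 0.251 to 0.362 CPM, which covers counting error only. This comparison was simulated 5 times with 14928 genes, 200 of them changed. Of 1.5-fold changes 42.2% were recovered, of 2-fold changes 77.6%, and 7.95% of calls were false. In the data 17.9% of genes were called, so recovery there may differ.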

Additional observations from a re-analysis of the deposited data

How the results depend on the processing

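The count of 7 higher and 2 lower repair genes was the same with DESeq2's size factors and with a filter on a mean CPM of at least 1. Scaling by library size gave 9 higher and 1 lower, and limma-voom 7 and 1. DESeq2's test gave 8 and 2, and no filter 9 and 2. On either TPM scale (pseudocount 1 or 0.1) limma gave 1 higher and 0 lower, where it called 4.82% and 4.62% of all genes; in the edgeR test 18 of 46 repair genes and 31.75% of all genes had an unadjusted p under 0.05. A threshold of 0.01 gave 2 and 1. GC and length offsets, added after seeing the data, gave 11 and 3, and 10 and 1 together with the replicate block. Leaving out 1 library at a time gave 3 to 11 higher and 1 to 2 lower, and for the further repair genes 4 to 18 higher and 3 to 6 lower. The replicate block alone gave 6 and 1, and for the further repair genes 8 higher in place of 15. Deviations of same-numbered libraries had correlations of -0.087, -0.196 and -0.007, and those of unlike number from -0.187 to 0.268. With 3 libraries per group, which also differ by length and GC trends, these values cannot show whether the numbers pair cultures. Of the 46 members, 28 were followed over 18 alternatives, and sign changes of the others were not counted. Among those 28, 10 values changed sign, none of them of a called gene. XRCC6 stood at 0.017 with library size scaling, 0.0268 and 0.0269 on the TPM scales, and 0.012 and 0.0127 with GC and length offsets without and with the replicate block. FANCB stood at -0.0081 and -0.0315 on the TPM scales and from -0.0928 (without CCS1477 1) to 0.523 (without CCS1477 2) over the libraries left out, and ERCC4 at 0.24 and 0.27 on the TPM scales. By the log2 ratio of mean TPM, other members also had a sign opposite to that by counts. PALB2 had 0.11 by TPM and -0.05 by counts, and RAD51D -0.18 and 0.01. XRCC3 had 0.06 and -0.002, and XPA 0.04 and -0.02. The cause of these shifts was not tested. Each fit that leaves out 1 library has 2 libraries in its group. In the simulations 42.2% of 1.5-fold changes, larger than most seen here, were recovered. With 200 of 14928 genes changed there, against 17.9% called here, recovery in these data may differ.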

Other observations

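Estimates by TPM and by counts parted for a few repair genes. The widest gap was for ERCC4, with a log2 ratio of mean TPM of 0.36 and a log2 fold change by counts of -0.24. LIG3 had -0.57 by TPM and -0.12 by counts, RAD54L 0.86 and 0.50, ATR 0.48 and 0.13, ERCC2 0.36 and 0.04, and FANCB 0.05 and 0.33. The next widest gap was that of ERCC5, at 0.20 (0.57 by TPM and 0.38 by counts). BRCA2 had 13.1, 11.8 and 8.72 TPM in CCS1477, against 9.54, 12.8 and 3.75 TPM in DMSO, so that DMSO 3 was the low library for this long transcript.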
